A study of Mus musculus with 2 samples.

Results

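The genes described here are 52 mouse genes of G2 phase and mitosis, taken as the rows of both count tables whose NCBI gene identifier belongs to the list, and all 52 were found among 36528 gene rows. They cover 8 roles: 5 genes of the Cdk1 engine that drives entry into mitosis, 8 of the kinetochore and its checkpoint, 3 of the chromosomal passenger complex, 15 of the spindle, 5 of cytokinesis, 9 of chromosome structure, 3 of the nuclear envelope and 4 of ubiquitination at mitotic exit. The rule gives the genes by name and uses no measured value, and the list was drawn up with earlier results of these data known. In a cycling cell these genes are transcribed in a wave from late S phase to mitosis, and most are kept low in G1 and in cells that have left the cycle. Their waves are known to depend on promoter elements bound by the MuvB complex with B-Myb and FoxM1, and many of the proteins are destroyed by the anaphase-promoting complex at mitotic exit. In the epidermis, division takes place mostly in the basal layer, and cells that move up into the suprabasal layers stop dividing.

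The study profiled cultured epidermal cells from newborn C57BL/6 mice by droplet single-cell RNA sequencing, with 1 library for each genotype. The library labelled Bap1_KO came from 9 pooled Bap1fl/fl Rosa26-CreERT2 neonates and the library labelled Bap1_WT from 11 pooled Rosa26-CreERT2 neonates, all at postnatal day 1. CreERT2 is a Cre recombinase that is active only with tamoxifen or its metabolite 4-OHT, and the Rosa26 locus drives it in nearly all cell types, so any cell of the culture could delete floxed Bap1. Both cultures received 100 nM 4-OHT for 4 days and were grown for 3 more days without it, in M254, a medium for melanocytes, with human melanocyte growth supplement. Bap1 encodes a deubiquitinase of histone H2A and a tumour suppressor.

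The table labelled Bap1_KO held 1760 cells and 64954113 unique molecular identifiers (UMIs, each standing for 1 captured RNA molecule), with a median of 33585 per cell. The table labelled Bap1_WT held 1926 cells and 77579465 UMIs, with a median of 37223 per cell, and 3 cell barcodes occurred in both tables. After filtering, 1738 and 1912 cells remained, and 1594 cells labelled Bap1_KO and 1748 labelled Bap1_WT fell into 7 clusters rich in keratin genes, which are treated together as keratin-rich cells. The 2 libraries stood apart: clusters 5 and 6 held 562 and 418 cells labelled Bap1_KO against 23 and 14 labelled Bap1_WT, while clusters 1 and 2 held 21 and 47 labelled Bap1_KO against 330 and 530 labelled Bap1_WT. Bap1 itself reached 19.6 UMIs per 1000000 UMIs (CPM) in keratin-rich cells labelled Bap1_KO and 14.01 CPM in those labelled Bap1_WT, a log2 ratio of 0.49, which runs against the label. The counted tags lie at the 3′ end of the RNA and no source used here gives the exons that Cre removes, so Bap1 RNA does not check the genotype, and the directions below belong to the libraries as labelled. With 1 library per genotype no test between genotypes was possible, and all intervals are 95% exact intervals that cover counting error only. Where no cell had a UMI or passed a limit, the share that 3 cells would give is named as what the 0 allows. In summed levels, fewer cells that use a gene and less RNA per cell cannot be told apart.

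Promoters of 4 members are shown first, 3 with lower levels in the library labelled Bap1_KO and 1 without, because the members often share sequence elements that the choice of genes did not use. RefSeq promoter windows on GRCm38.p6, running from 250 bases before to 50 bases after a start site, were found for 46 of the 52 members, in 51 windows. TTTGAA, the core of the cell cycle homology element to which MuvB binds, was searched on both strands and stood in 66.7% of the member windows, against 17.9% of the 32851 windows of all genes. CCAAT, the sequence bound by NF-Y, stood on either strand in 74.5% of the member windows and in 37.4% of all windows. Both were present in 52.9% of member windows and 6.95% of all windows. The letters of both motifs are in capitals below, in either orientation, and in the Ube2c window 2 CCAAT matches on opposite strands overlap.
Ube2c (chr2:164769679-164769978, plus strand): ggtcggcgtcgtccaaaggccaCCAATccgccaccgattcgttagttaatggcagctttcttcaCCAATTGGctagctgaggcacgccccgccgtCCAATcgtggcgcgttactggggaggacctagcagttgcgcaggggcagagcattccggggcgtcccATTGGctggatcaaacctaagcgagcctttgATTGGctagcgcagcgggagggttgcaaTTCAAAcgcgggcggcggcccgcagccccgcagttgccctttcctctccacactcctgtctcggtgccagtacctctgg
Cdk1 (chr10:69352863-69353162, minus strand): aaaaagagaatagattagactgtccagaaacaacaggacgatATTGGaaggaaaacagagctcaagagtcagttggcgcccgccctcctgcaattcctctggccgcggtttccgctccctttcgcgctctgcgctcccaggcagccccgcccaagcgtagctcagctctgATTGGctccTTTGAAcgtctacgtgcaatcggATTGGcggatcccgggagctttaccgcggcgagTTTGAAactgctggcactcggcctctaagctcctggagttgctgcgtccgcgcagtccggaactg
Top2a (chr11:99024140-99024439, minus strand): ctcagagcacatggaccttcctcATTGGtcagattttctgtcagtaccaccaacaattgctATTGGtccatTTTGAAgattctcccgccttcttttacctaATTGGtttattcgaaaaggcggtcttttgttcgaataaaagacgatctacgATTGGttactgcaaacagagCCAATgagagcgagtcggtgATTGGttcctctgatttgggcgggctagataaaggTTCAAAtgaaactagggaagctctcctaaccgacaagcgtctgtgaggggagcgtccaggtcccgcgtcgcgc
Psrc1 (chr3:108383554-108383853, plus strand): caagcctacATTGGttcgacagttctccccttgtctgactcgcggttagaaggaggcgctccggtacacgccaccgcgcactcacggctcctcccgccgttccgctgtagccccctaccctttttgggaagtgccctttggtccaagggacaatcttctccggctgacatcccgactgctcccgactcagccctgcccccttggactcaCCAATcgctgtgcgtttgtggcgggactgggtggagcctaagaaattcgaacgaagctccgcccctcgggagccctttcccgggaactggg

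Ube2c, Cdk1 and Top2a were among the members with lower levels in the library labelled Bap1_KO, and Psrc1 was the member with the highest ratio. The Ube2c window held TTTGAA once, starting 29 bases before the start site. Cdk1 had 2 matches, 71 and 15 bases before it, and Top2a had 2, 179 and 23 bases before it. The Psrc1 windows held no TTTGAA on either strand and held CCAAT. Among members past a 1.5-fold lower level in the library labelled Bap1_KO, 73.5% of 34 windows held TTTGAA and 58.8% held both motifs, against 52.9% and 41.2% of the 17 windows of the other members. These windows belong to 32 and 14 genes, and some genes count more than once, with overlapping windows for Ect2 and Psrc1. Psrc1, Gtse1 and Cbx5, not called lower, have a second window and no TTTGAA in either. Their second windows lower both percentages of the other members, so part of the contrast comes from them. CCAAT by itself went the other way, in 73.5% of the windows of the lower members and 76.5% of those of the other members. The window of Cks1b, a member that was not lower, held TTTGAA 2 times. A match describes these letters only, and whether a factor bound there was not measured.

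Most members were lower in keratin-rich cells labelled Bap1_KO. Levels are given in CPM of the summed cells. The tags count 1 end of each RNA, so levels were not divided by gene length. All 52 members had at least 20 UMIs, and 38 of them fell by 1.5-fold or more in the library labelled Bap1_KO relative to the library labelled Bap1_WT, against a background of 17.4% of 16745 genes. None was at least 1.5-fold higher, against 7.76% of genes. At a 2-fold limit 33 members were lower, where 9.05% of genes were, and 0 were higher, where 3.17% of genes were. The median log2 ratio was -1.56 over the members and -0.015 over all genes. With every cell kept, whatever its class, 38 members were lower, where 17.7% of genes were, and 0 were higher, where 7.31% of genes were. No call rests on a test, and the count was smaller without cluster 1.

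**Figure D1:**
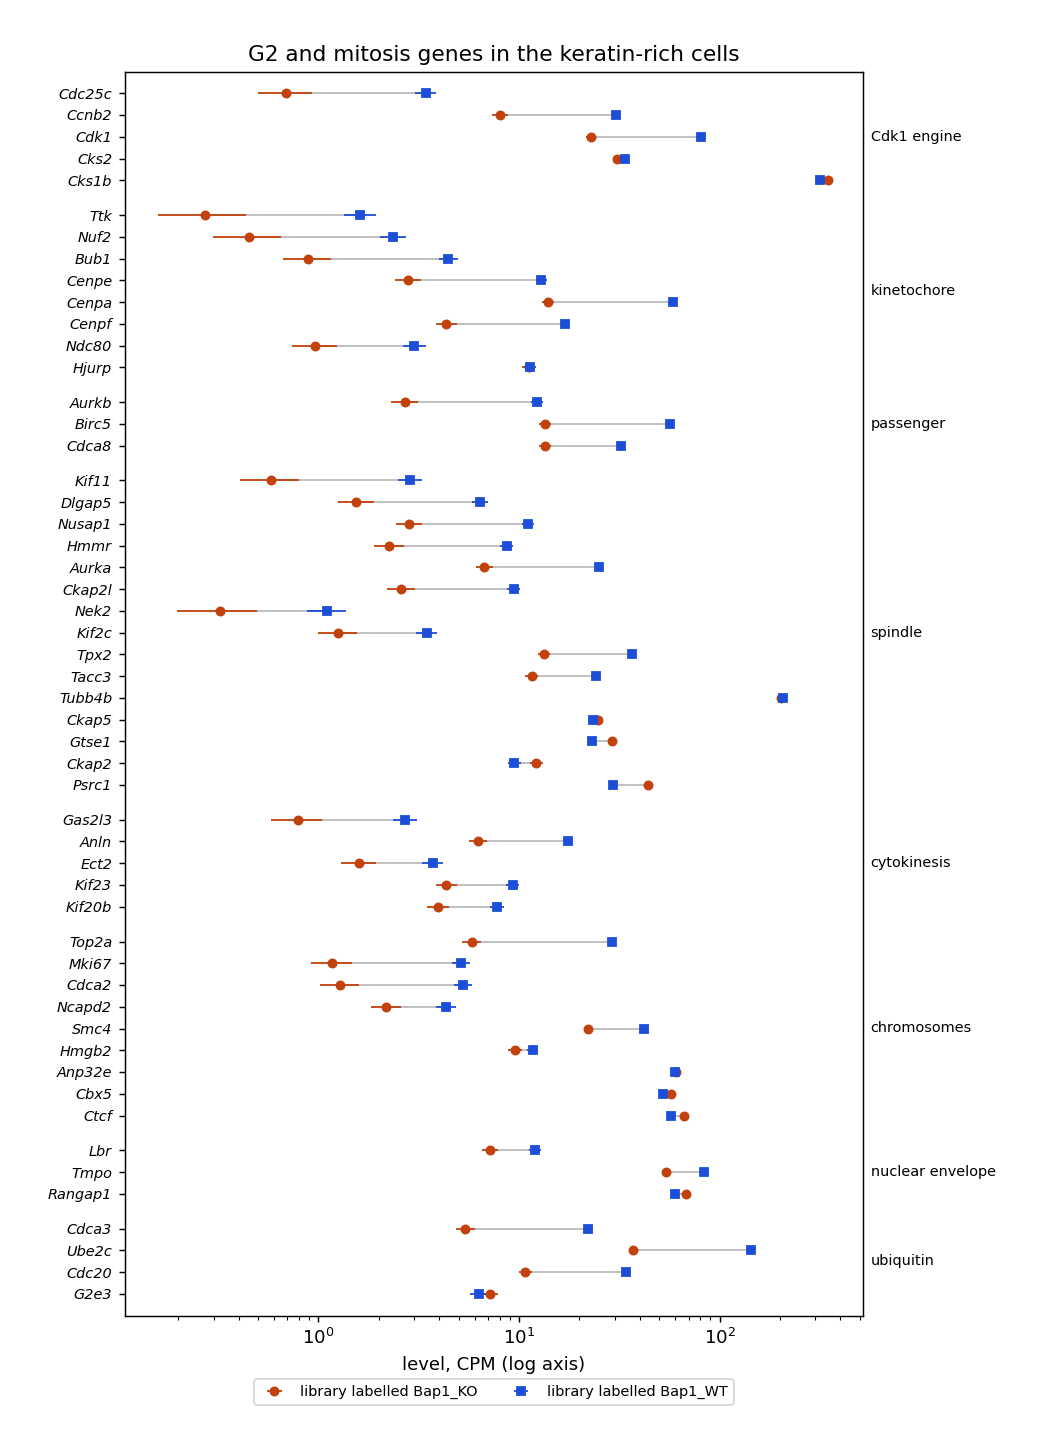
Level of each of the 52 members in keratin-rich cells (CPM, log axis) in the library labelled Bap1_KO (circles) and the library labelled Bap1_WT (squares), grouped by role, with 95% counting intervals. The 38 lower members have their circle well to the left of their square, and Cks1b and Tubb4b lie near each other at the right end in both libraries.

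In the Cdk1 engine, 3 of 5 members were lower. Cdk1, the kinase that drives cells into mitosis, had 1418 UMIs (22.8 CPM) in the library labelled Bap1_KO and 5958 UMIs (80.3 CPM) in the library labelled Bap1_WT, a log2 ratio of -1.82 (-1.90 to -1.73). Its partner cyclin gene Ccnb2 reached 8.06 CPM in the library labelled Bap1_KO and 30.4 CPM in the library labelled Bap1_WT. Cdc25c, the phosphatase that activates Cdk1, had 43 UMIs in the library labelled Bap1_KO and 254 in the library labelled Bap1_WT. The 2 small Cdk-binding subunits did not share this pattern: Cks1b stood at 349 CPM in the library labelled Bap1_KO and 316 CPM in the library labelled Bap1_WT, and Cks2 at 30.9 and 33.8 CPM in the same order. Cks1b also acts with the SCF ubiquitin ligase in degrading the inhibitor p27, outside mitosis. A retrocopy, Cks1brt, is counted in a row of its own, at 23.1 CPM in the library labelled Bap1_KO and 14.4 CPM in the library labelled Bap1_WT, and reads may be split between the copies.

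Of the kinetochore and checkpoint genes, 7 of 8 were lower, with a median log2 ratio of -2.14. Cenpa, the histone H3 variant that marks the centromere, reached 13.97 CPM in the library labelled Bap1_KO and 58.6 CPM in the library labelled Bap1_WT. Cenpf, a kinetochore protein, reached 4.34 CPM in the library labelled Bap1_KO and 16.99 CPM in the library labelled Bap1_WT. Ttk, Nuf2 and Bub1 had 3 of the 5 lowest ratios of all members. Ttk, the checkpoint kinase Mps1, had 17 UMIs in the library labelled Bap1_KO and 120 in the library labelled Bap1_WT, a log2 ratio of -2.57 (-3.39 to -1.83), and 1 cell held 17.6% of its UMIs in the library labelled Bap1_KO. Nuf2, a subunit of the Ndc80 complex that holds microtubules, had 28 and 175 UMIs, and Bub1, another checkpoint kinase, had 55 and 330 UMIs, in the libraries labelled Bap1_KO and Bap1_WT. Hjurp, the chaperone that loads Cenpa, differed from its client: it stood at 11.2 CPM in the library labelled Bap1_KO and 11.4 CPM in the library labelled Bap1_WT. Its annotated interval overlaps Mroh2a, so part of its counts may belong to that gene.

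All 3 chromosomal passenger genes were lower. Birc5, the survivin subunit, reached 13.5 CPM in the library labelled Bap1_KO and 56.8 CPM in the library labelled Bap1_WT, a log2 ratio of -2.07 (-2.18 to -1.96). Aurkb, the kinase of the complex, reached 2.70 CPM in the library labelled Bap1_KO and 12.3 CPM in the library labelled Bap1_WT. Cdca8, the borealin subunit, reached 13.5 CPM in the library labelled Bap1_KO and 32.2 CPM in the library labelled Bap1_WT, the smallest difference of the 3.

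Spindle genes were divided, with 10 of 15 lower and the other 5 near or above equal levels. Kif11, the motor that pushes spindle poles apart, had 36 UMIs in the library labelled Bap1_KO and 213 in the library labelled Bap1_WT, a log2 ratio of -2.31. Tpx2, which activates Aurora A, reached 13.3 CPM in the library labelled Bap1_KO and 36.7 CPM in the library labelled Bap1_WT. Tubb4b, a beta-tubulin that also builds microtubules between divisions, stood at 202 CPM in the library labelled Bap1_KO and 208 CPM in the library labelled Bap1_WT, and it has 2 named pseudogenes. Psrc1, which binds microtubules and is also known as a p53 target, reached 43.8 CPM in the library labelled Bap1_KO and 29.3 CPM in the library labelled Bap1_WT. Its log2 ratio of 0.58 (0.50 to 0.66) lies just under the 1.5-fold limit of 0.585, and past it when ratios are centred on the median of all genes. Gtse1, which restrains p53 in G2, reached 29.1 and 23.2 CPM, and Ckap2, a spindle-associated protein, 12.2 and 9.49 CPM, in the libraries labelled Bap1_KO and Bap1_WT. Among lower members the one nearest the limit was Tmpo, at -0.64, and the nearest to it among members not called lower was Hmgb2, at -0.29.

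The 5 cytokinesis genes were all lower, with log2 ratios from -1.78 to -0.98. Anln, the anillin scaffold of the contractile ring, reached 6.24 CPM in the library labelled Bap1_KO and 17.5 CPM in the library labelled Bap1_WT. Kif23, a motor of the central spindle, reached 4.34 and 9.29 CPM, and Kif20b, a kinesin of the midbody, 3.94 and 7.75 CPM, in the libraries labelled Bap1_KO and Bap1_WT.

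Of the chromosome structure genes 5 of 9 were lower. Top2a, the topoisomerase that untangles sister chromatids, reached 5.80 CPM in the library labelled Bap1_KO and 29.1 CPM in the library labelled Bap1_WT, a log2 ratio of -2.32 (-2.49 to -2.16). Mki67, the coat protein of mitotic chromosomes known as Ki-67, had 73 UMIs in the library labelled Bap1_KO and 380 in the library labelled Bap1_WT. Ctcf, Anp32e and Cbx5 encode chromatin proteins with roles throughout the cycle (an insulator protein, a chaperone of histone H2A.Z and heterochromatin protein HP1 alpha), and their log2 ratios lay between 0.02 and 0.20. Of the nuclear envelope genes, Tmpo (lamina-associated polypeptide 2) reached 53.7 CPM in the library labelled Bap1_KO and 83.7 CPM in the library labelled Bap1_WT. Lbr, the lamin B receptor, reached 7.19 CPM in the library labelled Bap1_KO and 12.02 CPM in the library labelled Bap1_WT, while Rangap1, the activator of the Ran GTPase, reached 68.3 and 59.8 CPM in that order.

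In the ubiquitin group 3 of 4 were lower. Ube2c, the E2 enzyme that works with the anaphase-promoting complex, had the highest mean level of both libraries among the lower members, with 2296 UMIs (36.9 CPM) in the library labelled Bap1_KO and 10576 UMIs (142.6 CPM) in the library labelled Bap1_WT, a log2 ratio of -1.95 (-2.02 to -1.88). In the library labelled Bap1_KO alone, Tmpo had the higher level, at 53.7 CPM. Cdc20, which activates that complex, reached 10.8 CPM in the library labelled Bap1_KO and 34.1 CPM in the library labelled Bap1_WT. Cdca3, which promotes degradation of Wee1, reached 5.40 and 22.2 CPM in that order. G2e3, a ubiquitin ligase, stood at 7.19 CPM in the library labelled Bap1_KO and 6.28 CPM in the library labelled Bap1_WT. Over all members, 19 overlap another annotated gene and counts there may be shared.

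The summed level of the 52 members was 1264 CPM in keratin-rich cells labelled Bap1_KO and 1768 CPM in those labelled Bap1_WT, a log2 ratio of -0.48 (-0.50 to -0.47). The 14 members not called lower made up 76.9% of member UMIs in the library labelled Bap1_KO and 51.0% in the library labelled Bap1_WT, and Cks1b and Tubb4b alone made up 43.6% and 29.7%. The 38 lower members summed to 291 CPM in the library labelled Bap1_KO and 866 CPM in the library labelled Bap1_WT. The other 14 summed to 972 CPM in the library labelled Bap1_KO and 902 CPM in the library labelled Bap1_WT. These sums over called members follow from the calls and show only how the levels are divided.

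Fewer members were lower once cluster 1 was left out. This cluster, led by Serpinb2, Il24 and Nppb, held 55.1% of the member UMIs and 25.2% of all UMIs of keratin-rich cells labelled Bap1_WT, against 6.77% and 2.08% of those labelled Bap1_KO. The members were left out when cells were clustered, yet Ube2c and Cenpa were among its 10 leading genes. Without cluster 1, 12 of 52 members were 1.5-fold lower or more in cells labelled Bap1_KO, where 16.8% of genes were, and 2 were higher, where 8.01% of genes were, and the median log2 ratio was -0.32. Cdk1 then stood at 17.6 CPM in cells labelled Bap1_KO and 25.9 CPM in cells labelled Bap1_WT, and Ube2c at 25.6 and 29.0 CPM in that order. Top2a, Aurkb, Kif11, Mki67, Ttk, Bub1 and Nuf2 were among the 12 members still lower, with Top2a at 4.07 CPM in cells labelled Bap1_KO and 7.998 CPM in cells labelled Bap1_WT. Cks1b and Ckap2 were the 2 higher members, Cks1b at 342 CPM in cells labelled Bap1_KO and 222 CPM in cells labelled Bap1_WT. The summed level without cluster 1 was higher in cells labelled Bap1_KO, with a log2 ratio of 0.18. Within cluster 1 the median log2 ratio of the members was -0.009, with 5 lower (23.4% of genes) and 2 higher (7.45% of genes), and Cdk1 reached 265 CPM in 21 cells labelled Bap1_KO and 242 CPM in 330 cells labelled Bap1_WT. The keratin-rich clusters other than cluster 1 differed among themselves. In clusters 2, 5 and 6, each with few cells of 1 library, the members with at least 20 UMIs were not lower in the median. Their median log2 ratios were 0.02, 0.11 and 0.79, where those of all genes were -0.13, -0.05 and 0.03. Clusters 0, 3 and 4 held lower members. In clusters 0, 3 and 4 joined, the keratin-rich clusters with at least 90 cells of each library, 29 of the 50 members with at least 20 UMIs were lower in cells labelled Bap1_KO (18% of genes) and 0 were higher (5.69% of genes). In cluster 4 alone 32 of 47 were lower (22.3% of genes) and 0 higher (8.1% of genes), with a median log2 ratio of -1.29. In cluster 3, 17 of 44 were lower (17.5% of genes), and in cluster 0, 12 of 38 were (15.1% of genes), with 0 higher in either (5.52% and 6.47% of genes). The members under 20 UMIs are left out of these counts, so that they do not cover the whole list and a member seen mostly in 1 library could pass through it. The part that the makeup of the clusters has in each member's ratio was not tested beyond these values.

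**Figure D2:**
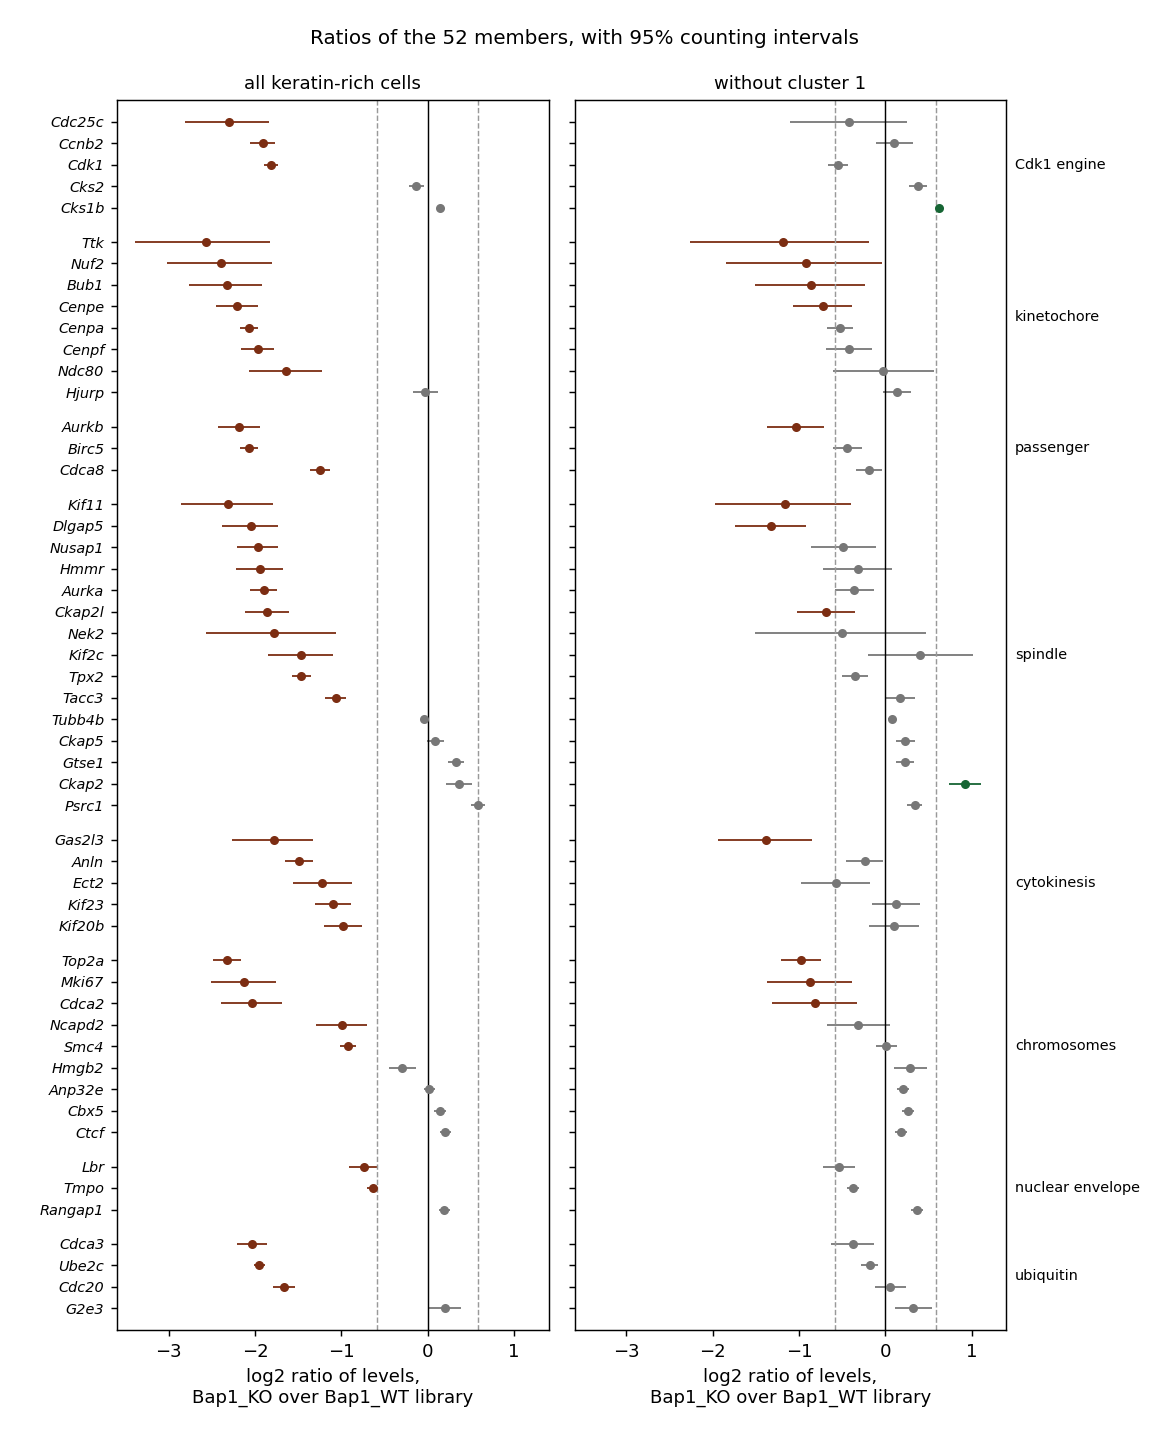
Log2 ratio of each member's level, library labelled Bap1_KO over library labelled Bap1_WT, in all keratin-rich cells (left) and without cluster 1 (right), with 95% counting intervals and dashed lines at 1.5-fold. The median is -1.56 on the left and -0.32 on the right, and Top2a, Gas2l3, Dlgap5 and Kif11 stay left of the dashed line in both panels.

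Cell by cell, the members split into genes seen in many cells and genes seen in few. To remove the difference in depth, every cell was thinned at random to 8000 UMIs, and no keratin-rich cell fell short of that. Cks1b had a UMI in 86.0% of cells labelled Bap1_KO and 73.9% of cells labelled Bap1_WT, and Tubb4b in 67.5% and 67.2%. Rangap1, Ctcf, Anp32e, Cbx5 and Tmpo followed, each in 31.5% to 43.4% of cells of both libraries, and these 7 genes led the order in both libraries. Tmpo ranked 7 in cells labelled Bap1_KO (33.9% of cells) and 3 in cells labelled Bap1_WT (43.4%). Cdk1 had a UMI in 7.40% of cells labelled Bap1_KO (6.17 to 8.80) and 17.8% of cells labelled Bap1_WT (16.1 to 19.7). Ube2c had one in 6.59% of cells labelled Bap1_KO and 15.4% of cells labelled Bap1_WT, and Birc5 in 3.83% and 10.2%. Ttk was seen in 0 of 1594 thinned cells labelled Bap1_KO, which allows a share of up to 0.188% of cells with a UMI at that depth, and in 0.801% of thinned cells labelled Bap1_WT. Without thinning it was seen in 0.816% and 4.52% of the same cells. Over the 38 lower members the median share was 1.54% of cells labelled Bap1_KO and 5.26% of cells labelled Bap1_WT, and over the other 14 it was 24.4% and 18.3%. Without thinning, Cdk1 was seen in 23.0% of cells labelled Bap1_KO and 46.0% of cells labelled Bap1_WT. No class in these cultures can be assumed to lack the members, so free RNA has no clean reference here. In cluster 0, which is led by suprabasal genes, the Ube2c share was 8.96% of cells labelled Bap1_KO and 6.67% of cells labelled Bap1_WT at median depths of 36226 and 36341 UMIs. The share of 6.59% over all keratin-rich cells labelled Bap1_KO is below the first of these values, so that share alone is not read as expression. The UMIs were unevenly spread: 82.1% of those of Ube2c labelled Bap1_KO lay in the cells with at least 10 members described below. Ube2c is itself 1 of the members counted there.

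Counting how many of the 52 members each thinned cell showed separated a small set of cells. The median cell showed 5 members in both libraries. At least 10 members were seen in 56 of 1594 keratin-rich cells labelled Bap1_KO, or 3.51% (2.66 to 4.54), and in 173 of 1748 labelled Bap1_WT, or 9.90% (8.54 to 11.4). At least 20 were seen in 18 cells labelled Bap1_KO (1.13%) and 113 labelled Bap1_WT (6.46%). At least 5 were seen in 65.6% of cells labelled Bap1_KO and 63.3% of cells labelled Bap1_WT, so at that level the order of the libraries was the other way round. The cut at 10 lies in the tail of the main peak: 8 to 11 members were seen in 207 cells labelled Bap1_KO and 180 labelled Bap1_WT. Of the cells past the cut, 35 labelled Bap1_KO and 38 labelled Bap1_WT showed 10 to 13 members, 0 and 10 showed 14 to 16, and 21 and 125 showed 17 or more. These cells are a range of a count and not a cell type.

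**Figure D3:**
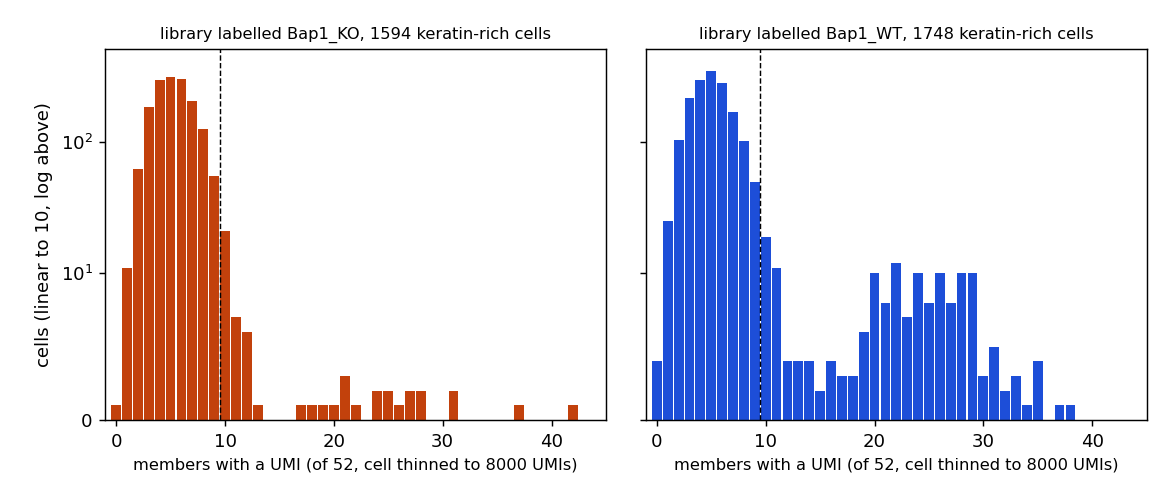
Number of keratin-rich cells by how many of the 52 members had a UMI after thinning to 8000 UMIs, in the library labelled Bap1_KO (left) and the library labelled Bap1_WT (right), with the cell axis linear up to 10 and logarithmic above. Both libraries peak at 5 members, and a second group of cells near 20 to 30 members holds far more cells on the right, with 113 cells at 20 or more against 18 on the left.

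The cells with at least 10 members held 18.1% of member UMIs and 4.32% of all UMIs of keratin-rich cells labelled Bap1_KO, against 52.03% and 12.5% of those labelled Bap1_WT. They were deeper than the other cells before thinning: 46062 against 35511 UMIs in the median cell labelled Bap1_KO, and 52947 against 38774 in the median cell labelled Bap1_WT. Within them the median log2 ratio over the 52 members was -0.54, with 24 lower (16.9% of genes) and 1 higher (10.5% of genes), the higher one being Psrc1. The members themselves choose these cells, so the values within them are a description only. With at least 20 members the median within such cells was 0.04, over 18 cells labelled Bap1_KO and 113 labelled Bap1_WT. In cells with 10 or more members Cdk1 reached 355 CPM labelled Bap1_KO and 516 CPM labelled Bap1_WT, Ube2c 702 and 1029 CPM, and Psrc1 48.7 and 20.4 CPM. In the cells below 10 members the summed level was 1081 CPM labelled Bap1_KO and 969 CPM labelled Bap1_WT, a log2 ratio of 0.16, and there Cks1b reached 328 and 225 CPM.

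Genes outside the member list differed between these cells and the rest in both libraries. Summed levels of 43 S-phase genes were 1513 CPM in cells with at least 10 members against 474 CPM below 10 in the library labelled Bap1_KO, and 2175 against 443 CPM in the library labelled Bap1_WT. Cdkn1a, the p21 inhibitor of cyclin-dependent kinases, was lower in cells with at least 10 members, at 1600 against 2580 CPM labelled Bap1_KO and 981 against 2175 CPM labelled Bap1_WT. The 14 suprabasal markers summed to 194 against 1417 CPM labelled Bap1_KO and 352 against 871 CPM labelled Bap1_WT. Over all keratin-rich cells these suprabasal markers, all 14 detected in both libraries, summed to 1364 CPM labelled Bap1_KO and 806 CPM labelled Bap1_WT. The 12 basal markers summed to 5988 CPM labelled Bap1_KO and 7651 CPM labelled Bap1_WT. In cells with at least 10 members these basal markers summed to 4977 CPM against 6033 CPM below 10 labelled Bap1_KO. Labelled Bap1_WT they summed to 6610 against 7800 CPM, so the sums of both marker sets were lower in cells with at least 10 members. The basal sums are mostly Krt14, at 3133 against 4666 CPM labelled Bap1_KO and 4175 against 5967 CPM labelled Bap1_WT. Krt5 went the other way, at 740 against 589 CPM labelled Bap1_KO and 1330 against 1021 CPM labelled Bap1_WT. The lower basal sum is therefore not a drop of every basal marker. The part of the marker shifts between the libraries in the lower member levels was not tested.

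Cells with at least 10 members lay in different clusters in the 2 libraries. In the library labelled Bap1_KO, 26 of the 56 were in cluster 6 and 15 in cluster 5, with 5 in cluster 1. In the library labelled Bap1_WT, 114 of the 173 were in cluster 1 and 32 in cluster 4, and 0 were in clusters 5 and 6. Of these cells labelled Bap1_KO, 1 in cluster 5 and 8 in cluster 6 showed at least 20 members, while all 5 in cluster 1 did. At that limit cluster 1 had 23.8% of its cells labelled Bap1_KO and 24.8% of those labelled Bap1_WT. At 10 members, cluster 1 had 23.8% of 21 cells labelled Bap1_KO (8.22 to 47.2) and 34.5% of 330 labelled Bap1_WT (29.4 to 39.9), so the intervals overlap. Cluster 6 had 6.22% of 418 cells labelled Bap1_KO, and its 14 cells labelled Bap1_WT are too few to compare. Cluster 4, the shallowest keratin-rich cluster, had 5.21% of 96 cells labelled Bap1_KO (1.71 to 11.7) and 12.3% of 260 labelled Bap1_WT (8.57 to 16.9). Its summed member level was 1325 CPM labelled Bap1_KO and 1853 CPM labelled Bap1_WT, and Top2a there had 19 UMIs labelled Bap1_KO and 213 labelled Bap1_WT. In clusters 0 and 3, the others with many cells of both libraries, shares were 0% and 1.20% labelled Bap1_KO against 1.07% and 3.24% labelled Bap1_WT. Summed levels in cluster 0 were 1074 CPM labelled Bap1_KO and 923 CPM labelled Bap1_WT, and in cluster 3 they were 1032 and 1025 CPM.

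**Figure D4:**
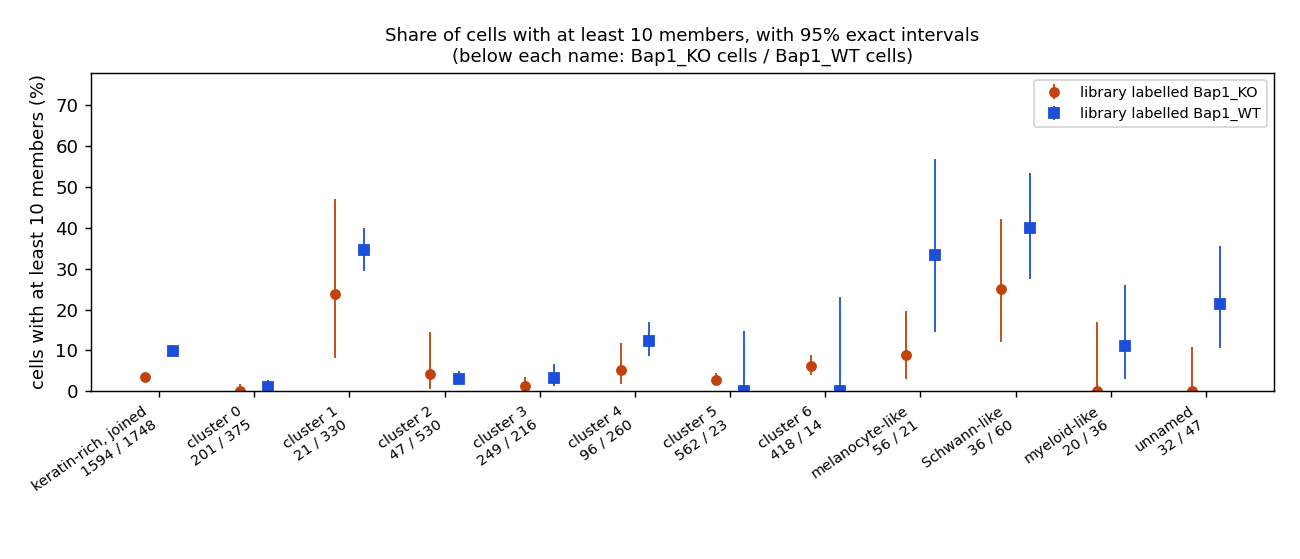
Percentage of cells with at least 10 members after thinning, for the joined keratin-rich cells, each of their 7 clusters and the other classes, in the library labelled Bap1_KO (circles, left of each pair) and the library labelled Bap1_WT (squares), with 95% exact intervals and cell numbers below. Schwann-like cells reach 25% and 40%, and cluster 1 reaches 23.8% and 34.5%.

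The other cell classes, 3 of them named from markers, held few cells, and the share with at least 10 members varied among them. Of the Schwann-like cells, 9 of 36 labelled Bap1_KO (25%, 12.1 to 42.2) and 24 of 60 labelled Bap1_WT (40%, 27.6 to 53.5) showed at least 10 members, and their summed levels were 4176 and 3932 CPM in that order. Cdk1 reached 231 CPM in Schwann-like cells labelled Bap1_KO and 255 CPM in those labelled Bap1_WT, and Top2a reached 158 and 145 CPM. Melanocyte-like cells had 5 of 56 labelled Bap1_KO (8.93%) and 7 of 21 labelled Bap1_WT (33.3%), with summed levels of 2234 and 3747 CPM. Top2a in melanocyte-like cells had 21 UMIs labelled Bap1_KO and 35 labelled Bap1_WT, or 32.3 and 142.3 CPM. Myeloid-like cells had 0 of 20 labelled Bap1_KO, which allows a share of up to 15%, and 4 of 36 labelled Bap1_WT (11.1%). Cluster 7, left unnamed, had 0 of 32 labelled Bap1_KO, which allows up to 9.38%, and 10 of 47 labelled Bap1_WT (21.3%), and Cdk1 there had 1 UMI labelled Bap1_KO and 149 labelled Bap1_WT. Median depth was 10126 to 19443 UMIs in the 3 named classes of both libraries. It was 35713.5 UMIs labelled Bap1_KO and 39773 labelled Bap1_WT in the joined keratin-rich cells, and 20845 and 18522.5 in their cluster 4.

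**Figure D5:**
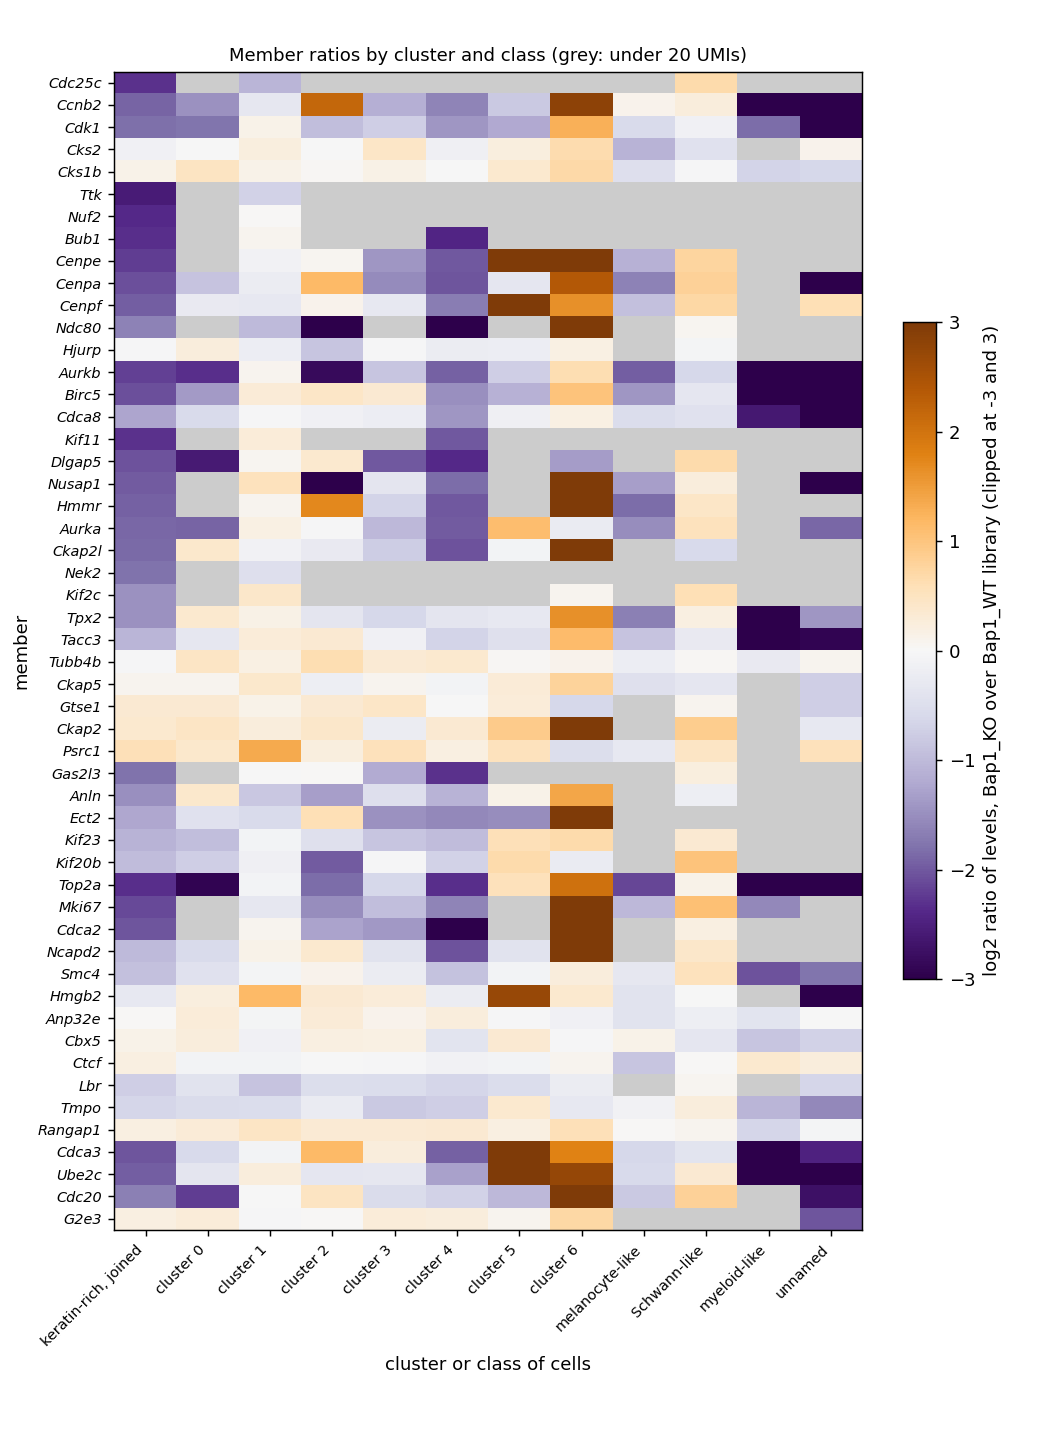
Log2 ratio of each member's level, library labelled Bap1_KO over library labelled Bap1_WT, in each cluster and class (colour clipped at -3 and 3, grey for under 20 UMIs in both libraries together). Cluster 4 and the unnamed cluster are mostly on the lower side. The median is -0.009 in cluster 1 and 0.19 in Schwann-like cells, where members lie on both sides of 0. The high values of clusters 5 and 6 are set against 23 and 14 cells labelled Bap1_WT.

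Members that were lower also appeared together in the same cells. Correlations of log-scaled thinned counts over cells of 1 library are given as descriptions, since the cells share a library and a depth. Over 1326 pairs of members the median Pearson correlation was 0.08 in 1594 cells labelled Bap1_KO and 0.16 in 1748 cells labelled Bap1_WT, and it was at least 0.3 in 217 and 347 pairs. Birc5 and Top2a had the pair value of 0.69 in cells labelled Bap1_KO and 0.70 in cells labelled Bap1_WT. Of the 31 cells labelled Bap1_KO with a Top2a UMI, 58.1% also had a Birc5 UMI, and of the 142 labelled Bap1_WT, 67.6% did. Cdk1 and Ube2c were seen together in 29 cells labelled Bap1_KO and 143 cells labelled Bap1_WT. Against the summed other members, the 38 lower members had a median correlation of 0.45 labelled Bap1_KO and 0.53 labelled Bap1_WT, and the other 14 had 0.10 and 0.17. Psrc1 was at -0.03 and -0.04, Gtse1 at 0.01 and 0.03, and Cks1b at 0.19 and 0.46, labelled Bap1_KO and Bap1_WT. Levels in cells with at least 10 members were a median 54.3 times those in the other cells for the lower members labelled Bap1_KO and 40.2 times labelled Bap1_WT, against 1.87 and 2.27 times for the other 14, a difference that the count of members itself favours.

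Other genes of the same processes were read from lists chosen by name. Of 44 further mitosis genes with at least 20 UMIs, 39 were lower in the library labelled Bap1_KO and none was higher, and the median log2 ratio was -1.57. The 3 most abundant of these were Jpt1, at 925 CPM labelled Bap1_KO and 943 CPM labelled Bap1_WT, Bub3, a checkpoint protein, at 226 and 228 CPM, and Pttg1, the securin, at 59.9 and 96.8 CPM. The 43 S-phase genes included 21 lower ones and no higher one (median -0.56). The most abundant of them was Tipin, which was lower, at 46.9 CPM labelled Bap1_KO and 72.8 CPM labelled Bap1_WT. Next were Rrm1, a subunit of ribonucleotide reductase, at 37.3 and 47.5 CPM, and Rfc2, at 39.1 and 45.6 CPM, neither past the limit. Among 14 genes of the MuvB, E2F and NF-Y regulators only Mybl2 (B-Myb) and Foxm1 were lower, with 56 and 42 UMIs labelled Bap1_KO and 137 and 129 UMIs labelled Bap1_WT. Rbbp4, a MuvB subunit, had the highest level of that list, 156 CPM labelled Bap1_KO and 127 CPM labelled Bap1_WT. None of 14 subunits of the anaphase-promoting complex was past the limit in either direction, and their median log2 ratio was 0.10. Of 13 genes of G1 arrest and D-type cyclins, Cdkn2c was lower and Cdkn1c higher, and Cdkn1a stood at 2537 CPM labelled Bap1_KO and 2026 CPM labelled Bap1_WT. The background of 17.4% and 7.76% of genes applies to each of these counts.

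Outside all lists, the genes most like the summed members over cells were Cdkn3, Pclaf, Ska1, Fam83d, Knstrn, Tk1, Fbxo5, Asf1b, Lockd and Cenpw, ranked by the smaller of the correlations in both libraries. Cdkn3, a phosphatase of Cdk proteins, correlated at 0.64 over 1594 cells labelled Bap1_KO and 0.66 over 1748 cells labelled Bap1_WT. Pclaf, a partner of PCNA, correlated at 0.52 and 0.70 and had 226 UMIs labelled Bap1_KO and 2128 labelled Bap1_WT, a log2 ratio of -2.98 (-3.19 to -2.78). All 10 had negative log2 ratios, from -2.98 to -1.20, where 17.4% of all genes were at least 1.5-fold lower. They were picked for following the members over the same cells, so their direction adds no support of its own.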

How the data were processed

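The deposited tables hold raw UMI counts per gene and cell, 1 table for each library, as the authors made them. The submitters' processing notes name mm10, Cell Ranger 2.1 and Seurat 2.0, with no role given for each, and the labels' protocols name the 10x Genomics 3′ kit, version 2. Of 36528 gene identifiers, 31049 matched a RefSeq symbol, and the unmatched ones held 2.67% of UMIs.

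Cells with under 500 genes or over 10% mitochondrial UMIs were left out (16 labelled Bap1_KO, 13 labelled Bap1_WT), as were Scrublet doublets (7 and 1, or 0.398% and 0.0519%). Cells were clustered with Scanpy 1.11.5 (Leiden, resolution 0.5) without the members and 3 related cell cycle lists, and classes were named from marker genes. Class names are rebuilt here and no deposited annotation was used. Counts were summed per library and class and divided by the class total, as counts per 1000000. Ratios have conditional exact binomial intervals, levels exact Poisson intervals and shares Clopper-Pearson intervals. The script was tested on simulated data. Sequences came from RefSeq promoter windows on GRCm38.p6.

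The members and lists were chosen with earlier results of these data known. Named in full were the 3 most abundant members of each role and, with at least 100 UMIs, the 5 lowest and 5 highest ratios. Ccnb2, Cdc25c, Tpx2, Mki67, those listed without cluster 1 and further members listed for their promoter windows were named after their values were seen. So were cluster 1 as the cluster to leave out, the joining of clusters 0, 3 and 4, and the 10 to 13, 14 to 16 and 17 member ranges. Pooled animals share a library, so nothing measures the spread between animals or cultures.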

Additional observations from a re-analysis of the deposited data

Results flagged for a closer look

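In 6 groups of cells the summed member level was higher in the library labelled Bap1_KO, while over all keratin-rich cells it was lower (log2 ratio -0.48). The opposite log2 ratios were 0.22 in cluster 0 (201 cells labelled Bap1_KO, 375 labelled Bap1_WT), 0.085 in cluster 1 (21 and 330), 0.15 in cluster 2 (47 and 530), 0.20 in cluster 5 (562 and 23), 0.46 in cluster 6 (418 and 14) and 0.087 in Schwann-like cells (36 and 60). The median log2 ratio over the single members with at least 20 UMIs was -0.34 in cluster 0, where 12 of 38 were lower and 0 higher, so that the sum and the single members went opposite ways there. It was -0.009 in cluster 1, 0.02 in cluster 2, 0.11 in cluster 5, 0.79 in cluster 6 and 0.19 in Schwann-like cells. Each counting interval of the summed ratios excludes 0, and the difference from the joined cells was not tested.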

How the results depend on the processing

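No paired analysis was possible because each genotype has 1 library. For the same reason no replicate could be left out. The main values were 38 lower members, a median log2 ratio of -1.56, a summed log2 ratio of -0.48, a ratio of 0.355 (labelled Bap1_KO over labelled Bap1_WT) between the shares of cells with at least 10 members, and a median of -0.54 within those cells. Over the 75 recalculated values of these results, 55 stayed within the counting interval or within 1.5 times the count, 16 moved and 4 reversed. With equal weight for each keratin-rich cluster, 7 members were lower, the median was -0.18, the summed ratio reversed to 0.067 and the share ratio was 0.800, with clusters of 14 to 23 cells of 1 library counting fully. The summed ratio was -0.35 with equal weight for each cell, -0.47 centred on all genes and -0.33 after thinning. The share ratio was 0.987 at 2000 UMIs and 3 members, 0.949 without thinning, 1.04 (reversed) at 5 members, 0.175 at 20 members and 0.230 at 8 of 40 members. Within cells with at least 20 members the median reversed to 0.041. Settings chosen after seeing the data gave, without cluster 1, 12 lower members, a median of -0.32, a reversed summed ratio of 0.18 and a share ratio of 0.779. Joining only clusters 0, 3 and 4, which have at least 90 cells in each library, gave 29 of 50 members lower, a median of -0.84, a summed ratio of -0.057 and a share ratio of 0.290, and leaving out Cks1b and Tubb4b gave a summed ratio of -0.80. Of 180 recalculated values for single named members, 31 moved out of their interval. Of these 180, 5 changed sign, all in members or shares near equal between the libraries: the Anp32e level (-0.008 with every cell kept), the Tubb4b share without thinning (-0.003), and the shares of Cks2 (-0.21), Hjurp (0.50) and Anp32e (-0.07) at 2000 UMIs, the last 3 outside their intervals. The causes of these shifts were not tested. Depth limits the rarest members: Ttk had 17 UMIs in keratin-rich cells labelled Bap1_KO.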
